A study of Mus musculus with 20 samples.

Results

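Glutathione S-transferases (GSTs) were examined in 5 tissues (heart, kidney, liver, small intestine, spleen) from wild-type and Nsun6-deficient mice. The 10 genes Gsta1, Gsta2, Gsta3, Gsta4, Gstm1, Gstm2, Gstm3, Gstp1, Gstt1, and Gstt3 were taken by name from the 55401 genes of the count table, and each name matched 1 gene. The table also held 17 other GST genes, which were kept apart. The mice were 8-week-old C57BL/6J females, and the knockout (Nsun6-KO, KO) is a strain in which CRISPR/Cas9 removed exons 3 and 4 of Nsun6, the gene of an RNA methyltransferase that places 5-methylcytosine. For each tissue, 2 WT and 2 KO libraries were sequenced from RNA, 20 in all, with total counts from 15897446 to 44508197 per library and a median of 28513950. The labels name no treatment, and the sources used here do not say if one animal gave several tissues.

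Each tissue carried its own markers. The summed level of 7 enterocyte markers was 6999 to 14960.2 in the small intestine and at most 303 in any library elsewhere. Levels are RPKM, reads of a gene scaled to the length of its exons and to the TMM-scaled size of the library, so that genes of different length can be set side by side. The 9 hepatocyte markers summed to 83924 to 168419 in the liver and to at most 11682 elsewhere, in small intestine KO replicate 2. Apoa1 alone made up 11595 of that sum. The 6 lymphocyte markers summed to 497 to 771 in the spleen against at most 82 elsewhere, the 6 proximal tubule markers to 2059 to 2878 in the kidney against at most 49.6, and the 6 cardiomyocyte markers to 21402 to 35959.7 in the heart against at most 171. No marker was at 0 in its own tissue. Nsun6 itself had a lowest, median, and highest level of 0.871, 1.22, and 1.96 RPKM in the 10 WT libraries and of 0.663, 0.979, and 1.93 RPKM in the 10 KO libraries. The genotypes overlapped, and a count over the whole gene does not test the loss of 2 exons.

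Several libraries stood apart from the others of their tissue, and many results that rest on them are given with and without them. In the small intestine, libraries divided by replicate number rather than by genotype (r = 0.947 between the libraries numbered 1 and 0.969 between those numbered 2, against 0.92 to 0.929 across numbers). In spleen WT replicate 2 the hepatocyte markers summed to 1582 RPKM, with Alb at 1146, against 7.38 to 82.9 in the other spleen libraries. In spleen KO replicate 1 the proximal tubule markers summed to 4.26 RPKM, with Miox at 2.25, against at most 0.212. Liver WT replicate 1 had the lowest hepatocyte sum of the liver, 83924 RPKM against 147598 to 168419, and the highest cardiomyocyte sum, 10.9 RPKM against 0.584 to 1.93. In small intestine KO replicate 1 the cardiomyocyte markers summed to 171 RPKM, with Myl2 at 87.2, against 2.25 to 5.1 in the other 3. Kidney WT replicate 2 had an r of 0.936 to 0.959 with the other kidney libraries, against 0.975 to 0.981 among those.

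GSTs are enzymes that join the tripeptide glutathione to electrophilic compounds, among them drug metabolites, carcinogens, and products of lipid peroxidation, so that the conjugates can be pumped out of the cell and broken down to mercapturic acids. The soluble enzymes work as dimers and are sorted by sequence into classes, of which alpha (Gsta), mu (Gstm), pi (Gstp), and theta (Gstt) are covered here. Alpha enzymes also reduce organic hydroperoxides, Gsta4 prefers 4-hydroxyalkenals from peroxidised lipids, and theta enzymes act on small halogenated compounds. Many of these genes are induced through the transcription factor Nrf2, which binds the antioxidant response element, and liver, kidney, and gut are the tissues for which the family is best known.

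Most genes of a class lie together in the genome (GRCm38). Gsta1 (ENSMUSG00000074183, chr9:78230656-78242684, plus strand), Gsta2 (ENSMUSG00000057933, chr9:78331018-78355788, minus strand), and Gsta4 (ENSMUSG00000032348, chr9:78182774-78209349, plus strand) share a stretch of chromosome 9, whereas Gsta3 (ENSMUSG00000025934) stands on chromosome 1 at chr1:21240589-21265661 on the plus strand. The mu genes Gstm3 (ENSMUSG00000004038, chr3:107963696-107969283), Gstm2 (ENSMUSG00000040562, chr3:107981702-107986453), and Gstm1 (ENSMUSG00000058135, chr3:108012255-108017973) follow one another on the minus strand of chromosome 3. Gstp1 (ENSMUSG00000060803) lies on the minus strand of chromosome 19 at chr19:4035407-4037985. The theta genes Gstt3 (ENSMUSG00000001665, chr10:75774115-75781414) and Gstt1 (ENSMUSG00000001663, chr10:75783813-75798584) are neighbours on the minus strand of chromosome 10.

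Among the alpha genes, the most similar coding sequences belonged to Gsta1 and Gsta2, which matched at 655 of 672 bases (97.5%). Identity was 74.0% between Gsta1 and Gsta3, and 65.6% to 66.9% between Gsta4 and the other alpha genes. In the mu class it ranged from 76.9% (Gstm1 and Gstm2) to 84.8% (Gstm2 and Gstm3), and the theta genes shared 75.5%. The promoters of Gsta1 and Gsta2 were less alike than their coding sequences, with 184 of 261 aligned positions identical (70.5%). The 250 bases upstream of the RefSeq start (GRCm38.p6) are shown for Gsta1 (chr9:78230419-78230668, plus strand), Gsta2 (chr9:78347146-78347395, minus strand), and Gsta3 (chr1:21240335-21240584, plus strand). They are shown because these 3 alpha genes had their highest mean levels in 3 different tissues. This start is not the gene bound given above. The window of Gsta2 lies wholly inside the bounds of its gene, and that of Gsta1 reaches into them. Capitals mark a match to the core of the antioxidant response element, TGACNNNGC.

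Gsta1: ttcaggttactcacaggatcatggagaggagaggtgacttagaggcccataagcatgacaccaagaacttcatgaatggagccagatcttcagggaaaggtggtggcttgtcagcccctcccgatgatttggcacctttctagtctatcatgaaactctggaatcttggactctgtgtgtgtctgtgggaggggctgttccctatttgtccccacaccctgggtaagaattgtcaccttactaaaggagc

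Gsta2: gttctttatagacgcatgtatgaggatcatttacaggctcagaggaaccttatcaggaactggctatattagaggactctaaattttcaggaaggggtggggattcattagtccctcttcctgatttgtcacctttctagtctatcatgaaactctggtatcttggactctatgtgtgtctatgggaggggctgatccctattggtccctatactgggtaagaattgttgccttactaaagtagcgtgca

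Gsta3: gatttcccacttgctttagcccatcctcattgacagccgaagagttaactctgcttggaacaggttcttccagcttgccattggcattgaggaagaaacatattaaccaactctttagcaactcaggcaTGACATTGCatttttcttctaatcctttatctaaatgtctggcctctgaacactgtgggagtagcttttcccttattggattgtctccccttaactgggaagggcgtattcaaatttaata

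A promoter sequence was found for 9 of the 10 genes. The match in Gsta3 begins 121 bases before the start and was the only one among the 9 genes, searched on both strands; 10.2% of 32851 mouse promoters of this length held one. The same Gsta3 sequence held the letters GTTAAT and AGATAA, on one strand or the other, which occur in 6.43% and 9.99% of promoters and in none of the other 8 genes. These matches describe letters in this window and do not show binding.

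The similarity of some copies bears on how reads could be counted. For Gsta1, 80.6% of its 100-base windows (689 of 855) occurred unchanged in another gene, namely Gm3776, Gsta2, or Gm10639. The share was 28.4% for Gsta2, 25.1% for Gstp1 (with Gstp2 and Gstp-ps), 13.8% for Gstm3, 10.8% for Gstt3 (with the overlapping Gm20441), 5.86% for Gstm1, and 0.357% for Gstm2. No window of Gsta3, Gsta4, or Gstt1 was shared. Gm3776 was itself counted at 104 ± 113 RPKM (SD, n = 4) in the small intestine and Gm10639 at 85.6 ± 36.0 RPKM (SD, n = 4) in the kidney. The levels of Gsta1 and Gsta2 are therefore uncertain by the reads that such copies took or gave. They are also uncertain by reads that matched several genes and may have gone uncounted, which would make a level too low.

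The 3 alpha genes closest in sequence had their highest levels in 3 different tissues. Below, the levels of a tissue are listed as WT replicates 1 and 2 and then KO replicates 1 and 2. Gsta1 stood at 39.1, 890.2, 40.5, and 578 RPKM in the small intestine. Both libraries numbered 2 were high and both numbered 1 low, in either genotype. In the kidney Gsta1 was at 3.28, 6.36, 4.64, and 2.01 RPKM, in the heart at 2.99, 2.67, 2.59, and 0.397, and in the liver at 4.42, 0.61, 0.558, and 0.5. The spleen had no Gsta1 count in any library. Steps between neighbours in the order of tissues were tested with edgeR in one fit of 20 libraries, and a step was called where the adjusted p was under 0.1 and the fold change above 2. The step from small intestine to kidney was called (log2 fold change 6.56, SE 1.23, adjusted p = 0.00113). With each library left out in turn, its value ranged from 4.84 to 7.03. Kidney over heart and heart over liver were not called (adjusted p = 0.487 and 0.648). With no filter on low counts, kidney over heart was called (log2 fold change 1.05, adjusted p = 0.00499). Over a floor of 3 counts per library, 0.0718 RPKM in the spleen, the mean of Gsta1 was at least 5388-fold higher in the small intestine, at least 56.7-fold higher in the kidney, and at least 21.2-fold higher in the liver. The first of these bounds was 3053-fold without small intestine WT replicate 2, and the last was 7.75-fold without liver WT replicate 1.

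Gsta2 was mainly a kidney transcript, at 691, 1278, 864, and 717 RPKM, and ranked 32nd of all genes by mean level there. The liver followed with 85.5, 36.5, 25.4, and 12.3 RPKM, none of which reached the lowest kidney library. In the small intestine it was at 0.667, 32.6, 0.709, and 20.3 RPKM. Here too the libraries numbered 2 were the high ones. Levels in the heart were 0.161 to 1.21 RPKM, and in the spleen 0.13 to 1.89. The kidney exceeded the liver 26-fold (log2 fold change 4.7, SE 1.21, adjusted p = 0.00757). Liver over small intestine was not called (adjusted p = 0.316), but was without small intestine WT replicate 2 (log2 fold change 3.62, adjusted p = 0.0284) or KO replicate 2 (3.28, adjusted p = 0.0564). The small intestine exceeded the heart (adjusted p = 0.00906). Heart over spleen was not called, with a wide standard error (log2 fold change 0.55, SE 1.23, adjusted p = 0.746). The call of small intestine over heart was lost without small intestine WT replicate 2 (log2 fold change 2.25, adjusted p = 0.106), and heart fell below spleen without heart KO replicate 1 (log2 fold change -0.5). The 2 nearly identical genes differed in opposite directions in these tissues. Gsta2 reached 1.71%, 3.66%, 1.75%, and 3.51% of the level of Gsta1 in the small intestine libraries, whereas Gsta1 reached 0.475%, 0.498%, 0.537%, and 0.281% of that of Gsta2 in the kidney libraries.

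Gsta3 was the liver form, with 551, 507, 578, and 659.9 RPKM. These were the most even levels of any leading gene, 574 ± 64.5 RPKM (SD, n = 4), and every liver library exceeded every library of the other tissues. The kidney had 38.8, 78.9, 48.5, and 34.9 RPKM, the heart 3.81 to 5.3, the spleen 1.4 to 8.46, and the small intestine 0.651 to 3.04. Gsta3 is known in mice for its activity towards the epoxide of aflatoxin B1. Liver over kidney (log2 fold change 3.53, SE 0.48, adjusted p = 3.89e-05) and kidney over heart (log2 fold change 3.5, SE 0.48, adjusted p = 3.82e-05) were both called. Spleen over small intestine missed the fold threshold with a log2 fold change of 0.99 (adjusted p = 0.0707). It passed with no filter on low counts (1.02), with limma (1.36), and with any one of 13 libraries left out, among them small intestine WT replicate 2 (1.18) and KO replicate 2 (1.38), but was 0.08 without spleen WT replicate 2. Heart over spleen had an adjusted p of 0.42. The spleen mean of 3.52 ± 3.32 RPKM (SD, n = 4) rested on WT replicate 2, at 8.46 RPKM, and was 1.88 ± 0.477 RPKM (SD, n = 3) without it; heart over spleen was then called (log2 fold change 1.36, adjusted p = 0.00688). Hepatocyte markers moved with this value, since their median in spleen WT replicate 2 was 1.43% of the liver mean and Gsta3 was 1.47% of its own. In the other 3 spleen libraries these shares were 0.00504% to 0.0648% for the markers and 0.244% to 0.41% for Gsta3. Their part in the result was not tested.

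Gsta4 was spread over 4 tissues. It was at 27.7, 604, 18.9, and 366 RPKM in the small intestine, 137, 444, 225, and 176 in the kidney, 117, 103, 134, and 87.4 in the heart, and 69.7, 60.6, 65.3, and 55.4 in the liver. Only the spleen was low, with 2.98 to 5.3 RPKM, below every library of the other tissues. The step from liver to spleen was called (log2 fold change 4, SE 0.92, adjusted p = 0.00224), and no step between neighbours among the other 4 tissues was. Among pairs that are not neighbours in this order, small intestine over liver was called in the same fit (log2 fold change 1.97, adjusted p = 0.0669). Liver over kidney was called too, with the liver lower (-1.94, adjusted p = 0.0886). Small intestine and kidney were level in the mean (log2 fold change 0.03, SE 0.81), which hid the division of the small intestine: without its WT replicate 2 or KO replicate 2 the difference was -1.66 (adjusted p = 0.0987) or -1.62, and the first of these passed the thresholds. It also turned to -0.31 and -0.06 without kidney WT replicate 1 or KO replicate 2. With replicate number within tissue as a block (replicate block), the step was called in the other direction (-1.17, adjusted p = 0.00241).

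Of the mu genes, Gstm1 and Gstm2 were measured above 4 RPKM in every library, whereas Gstm3 was not. Gstm1 was at 178, 367, 227, and 214 RPKM in the liver, 67.6, 119, 231, and 218 for the kidney, and 85.1, 90.0, 69.7, and 89.6 for the heart. The small intestine had 4.91, 68.5, 5.86, and 102 RPKM and the spleen 6.62 to 17.1. The step from small intestine to spleen was the 1 step called (log2 fold change 1.92, SE 0.77, adjusted p = 0.0505). Heart over small intestine was called instead without small intestine WT replicate 2 (2.23, adjusted p = 0.0247) or KO replicate 2 (2.41, adjusted p = 0.0127), and with limma (1.94, adjusted p = 0.0438). Gstm2 led in the heart, at 117, 79.5, 114, and 81.9 RPKM, and had 20.1 to 76.5 in the kidney, 24.8 to 42.2 in the liver, 4.36 to 42.5 in the small intestine, and 5.83 to 8.83 in the spleen. Heart over kidney was not called (log2 fold change 0.94, adjusted p = 0.262), and small intestine over spleen again was (log2 fold change 1.58, SE 0.64, adjusted p = 0.053). Liver over small intestine for Gstm2 was called without small intestine WT replicate 2 (1.46, adjusted p = 0.0925) or KO replicate 2 (1.84, adjusted p = 0.0198). Both calls of small intestine over spleen failed without small intestine WT replicate 2 (0.45 for Gstm1 and 0.7 for Gstm2) or KO replicate 2 (0.26 and 0.32). They also failed without spleen WT replicate 1 (1.8 and 1.62, adjusted p = 0.127 and 0.104). The same held without spleen KO replicate 2 (1.72 and 1.45, adjusted p = 0.153 and 0.15). That of Gstm2 failed without spleen WT replicate 2 as well (1.55, adjusted p = 0.116). Limma gave neither call (0.31 and 0.38, adjusted p = 0.768 and 0.596).

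Gstm3 was near 0 in 3 of the 5 tissues. It stood at 7.16, 85.5, 5.56, and 132 RPKM in the small intestine and at 11.9, 16.5, 11.8, and 10.9 RPKM in the liver. Kidney, spleen, and heart libraries held 0 to 25 counts and at most 0.498 RPKM. The liver exceeded the kidney 112-fold (log2 fold change 6.81, SE 1.17, adjusted p = 0.000459). Small intestine over liver was called as well (log2 fold change 2.15, SE 0.86, adjusted p = 0.0538). This call was lost without small intestine WT replicate 2 (log2 fold change 0.86) or KO replicate 2 (0.36), and with limma (1.68, adjusted p = 0.151). Leaving out any one liver library also lost it, though the log2 fold change was then 2.09, 2.32, 2.23, and 2.16. The adjusted p was 0.149, 0.117, 0.131, and 0.142. The highest spleen value came from WT replicate 2, and the spleen mean of 0.136 ± 0.242 RPKM (SD, n = 4) was 0.0155 ± 0.0147 RPKM (SD, n = 3) without it.

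Gstp1 was the most evenly used of the 10 genes, and its neighbouring tissues never differed by more than 2-fold. The pi enzyme is a general detoxifying form that is also known to bind stress kinases. Its levels were 58.3, 144, 83.9, and 137 RPKM for the small intestine, 55.6, 86.6, 119, and 90.4 for the liver, 54.5, 43.9, 61.8, and 37.5 for the heart, 31.8, 38.2, 48.2, and 30.7 for the kidney, and 20.8, 23.2, 26.9, and 17.2 for the spleen. Liver over heart (log2 fold change 0.81, adjusted p = 0.0397) and kidney over spleen (0.75, adjusted p = 0.0474) passed on p alone. Liver over heart also passed on fold without liver WT replicate 1 (1.04) or heart KO replicate 1 (1.05), and small intestine over liver turned to -0.06 without small intestine WT replicate 2.

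The theta genes were both highest in the liver but differed in how far they fell elsewhere. Gstt1 was at 324, 388, 386, and 474 RPKM in the liver, 84.1, 186, 136, and 123 in the kidney, 6.11, 114, 7.93, and 126 in the small intestine, 17.2 to 35.1 in the heart, and 7.75 to 12.3 in the spleen. The liver libraries did not overlap with those of any other tissue, yet no single step was called (liver over kidney: log2 fold change 1.57, SE 0.78, adjusted p = 0.138). Leaving out any one small intestine library brought this adjusted p to 0.052 to 0.0628 and the step to a call, and without small intestine WT replicate 2 or KO replicate 2 kidney over small intestine was called (2.65 and 2.57) and small intestine over heart turned to -0.09 and -0.02. Without small intestine WT replicate 1 or KO replicate 1, small intestine over heart was called (1.87 and 1.86, adjusted p = 0.0254 and 0.0321), as was heart over spleen (adjusted p = 0.0729 and 0.0849). DESeq2 called liver over kidney (1.59, adjusted p = 0.0678) and small intestine over heart (1.49, adjusted p = 0.0664), and limma called kidney over small intestine (2.32, adjusted p = 0.0218). The replicate block called liver over kidney (1.58, adjusted p = 1.46e-05) and heart over spleen (1.28, adjusted p = 6.21e-05). Kidney over small intestine was also called with it (2.17, adjusted p = 7.16e-07). Gstt3 was some way lower, with 31.8, 12.8, 13.5, and 14.8 RPKM in the liver, 5.3, 11, 5.45, and 12.1 in the small intestine, and 6.85, 6.26, 9.23, and 5.88 in the kidney. Spleen and heart held 0.478 to 1.02 RPKM. Kidney over spleen was called (log2 fold change 3.23, SE 0.37, adjusted p = 4.9e-06), as was liver over small intestine (1.07, SE 0.34, adjusted p = 0.0161). The latter fell under the fold threshold without small intestine WT replicate 1 (0.86) or KO replicate 1 (0.84), and without liver WT replicate 1, at 31.8 RPKM, it was 0.62 (adjusted p = 0.156). Limma did not call it (0.45, adjusted p = 0.361).

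**Figure D1:**
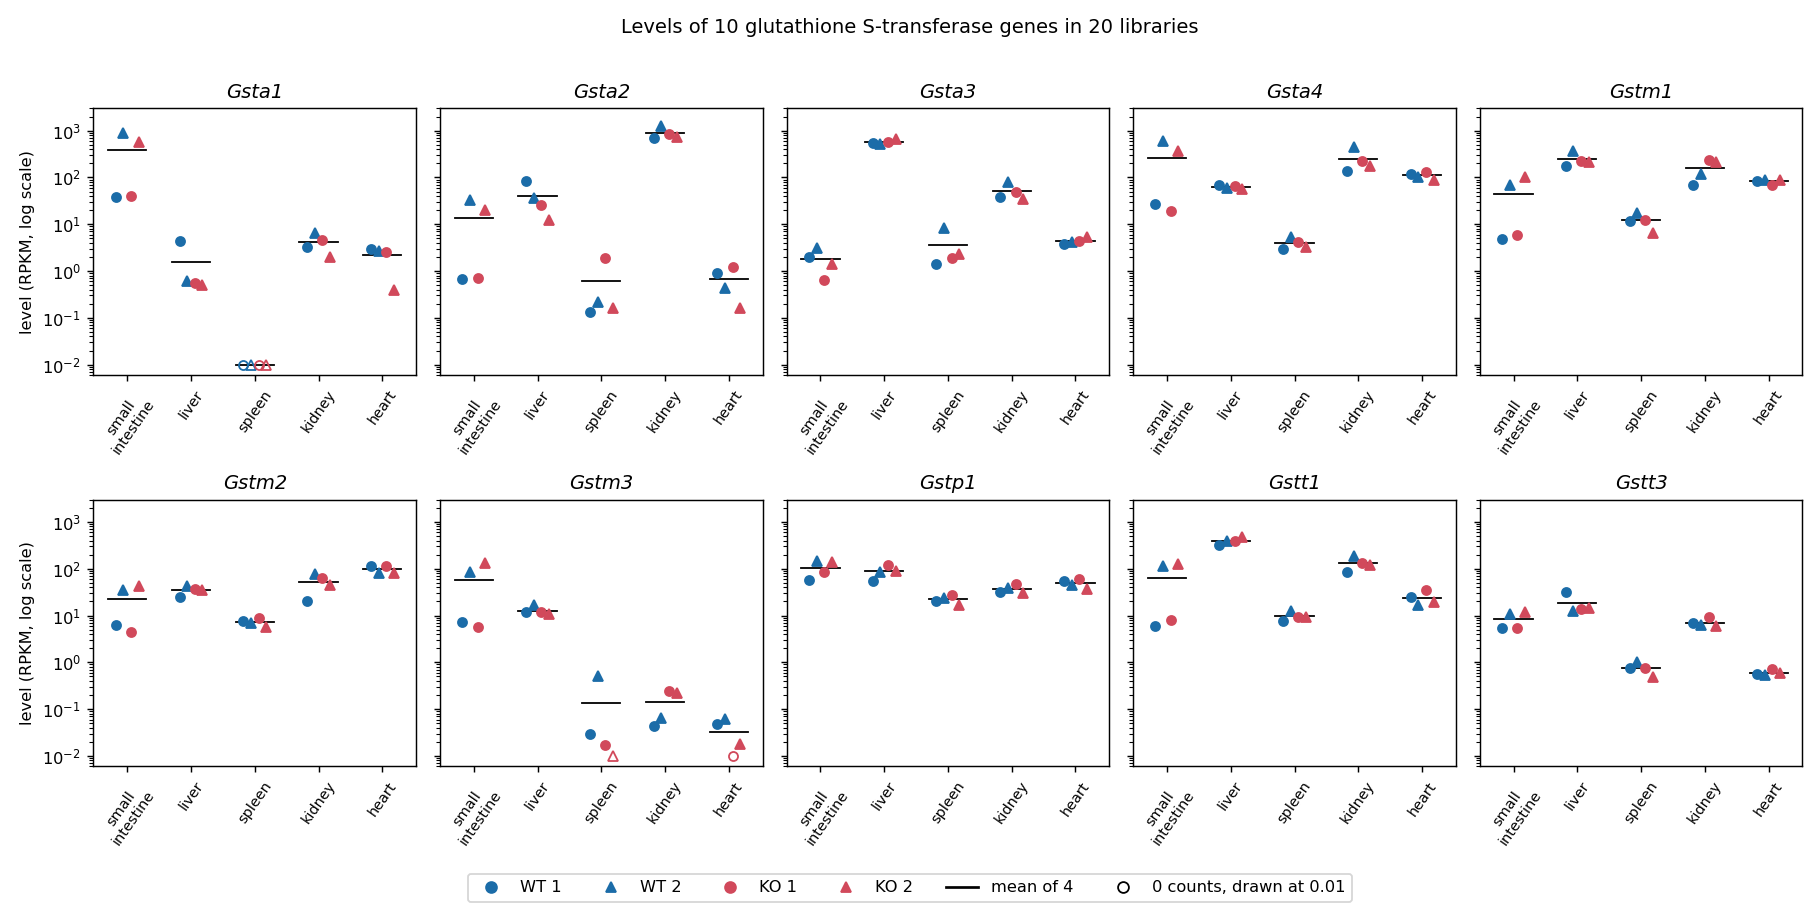
Level of each of the 10 genes (RPKM, log axis) in the 20 libraries, by tissue and genotype. Gsta1, Gsta2, and Gsta3 peak in the small intestine, kidney, and liver, and in the small intestine most genes split into a high and a low pair.

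Of the 40 steps between neighbouring tissues, 13 were called. Gsta1, Gsta2, Gsta3, Gstm3, and Gstt3 had 2 called steps each, Gsta4, Gstm1, and Gstm2 had 1 each, and Gstp1 and Gstt1 had none. With the small intestine represented by its libraries numbered 1 alone, 20 steps were called, and 16 with those numbered 2 alone, settings chosen after seeing the data.

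Over all pairs of tissues, the spleen stood out as the tissue in which these genes were low. All 10 genes were called higher in the liver than in the spleen, against 52.2% of the 23159 genes tested that were called in either direction, and 9 were called higher in the small intestine (49.5% of genes called). Likewise 8 were called higher in the kidney than in the spleen (50.5%) and 5 in the heart (52.6%). No gene of the family was called higher in the spleen than in another tissue in this fit, where Gsta3 in spleen over small intestine lay just under the fold threshold. Between liver and kidney 6 were called, 4 of them higher in the liver, where 34.7% of genes were called. Liver and heart differed for 6 genes, 5 of them higher in the liver (44.5%), and kidney and heart for 4 genes, all higher in the kidney (38%). Small intestine and liver differed for 7 genes, 3 higher in the small intestine (46.3%), small intestine and kidney for 6, 3 higher in the small intestine (45.7%), and small intestine and heart for 7, 5 higher in the small intestine (53.5%). Liver against spleen was the pair furthest above the background, and the counts for spleen against heart and for kidney against heart were at it. The counts with the small intestine average over its 2 replicate numbers, which differed widely. In bulk tissue, fewer cells of a type and less RNA per cell cannot be told apart.

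The 10 genes together were most abundant in the kidney, the liver, and the small intestine libraries numbered 2. Their summed level was 1574 ± 493 RPKM (SD, n = 4) in the kidney, 1472 ± 99.4 in the liver, 374 ± 49.0 in the heart, and 60 ± 13.3 in the spleen. In the small intestine the sums were 158, 1988, 174, and 1517 RPKM, so no mean is given. The gene with the largest share differed between tissues. Gsta3 made up 39.0% ± 3.93 (SD, n = 4) of the sum in the liver, followed by Gstt1 (26.6%) and Gstm1 (16.7%). In counts not divided by length, the liver share of Gsta3 was 64.4%. Gsta2 made up 56.8% ± 5.16 (SD, n = 4) in the kidney, followed by Gsta4 (14.8%) and Gstm1 (10.5%). In the heart, Gsta4 (29.5%), Gstm2 (26.1%), and Gstm1 (22.9%) were close to one another, and Gstm1 was first in KO replicate 2. In counts not divided by length, Gstm2 exceeded Gsta4 in every heart library. In the spleen Gstp1 led with 37.1% ± 4.3 (SD, n = 4), ahead of Gstm1 (19.6%) and Gstt1 (16.3%). The small intestine libraries numbered 1 were led by Gstp1 (42.7% ± 7.94, SD, n = 2) and those numbered 2 by Gsta1 (41.4% ± 4.71, SD, n = 2) and Gsta4 (27.3%). Shares are descriptions and were not tested. They set side by side genes of unequal similarity to other genes, with 80.6% of windows shared for Gsta1 and 25.1% for Gstp1. Reads that went uncounted for this reason could change which gene leads.

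**Figure D2:**
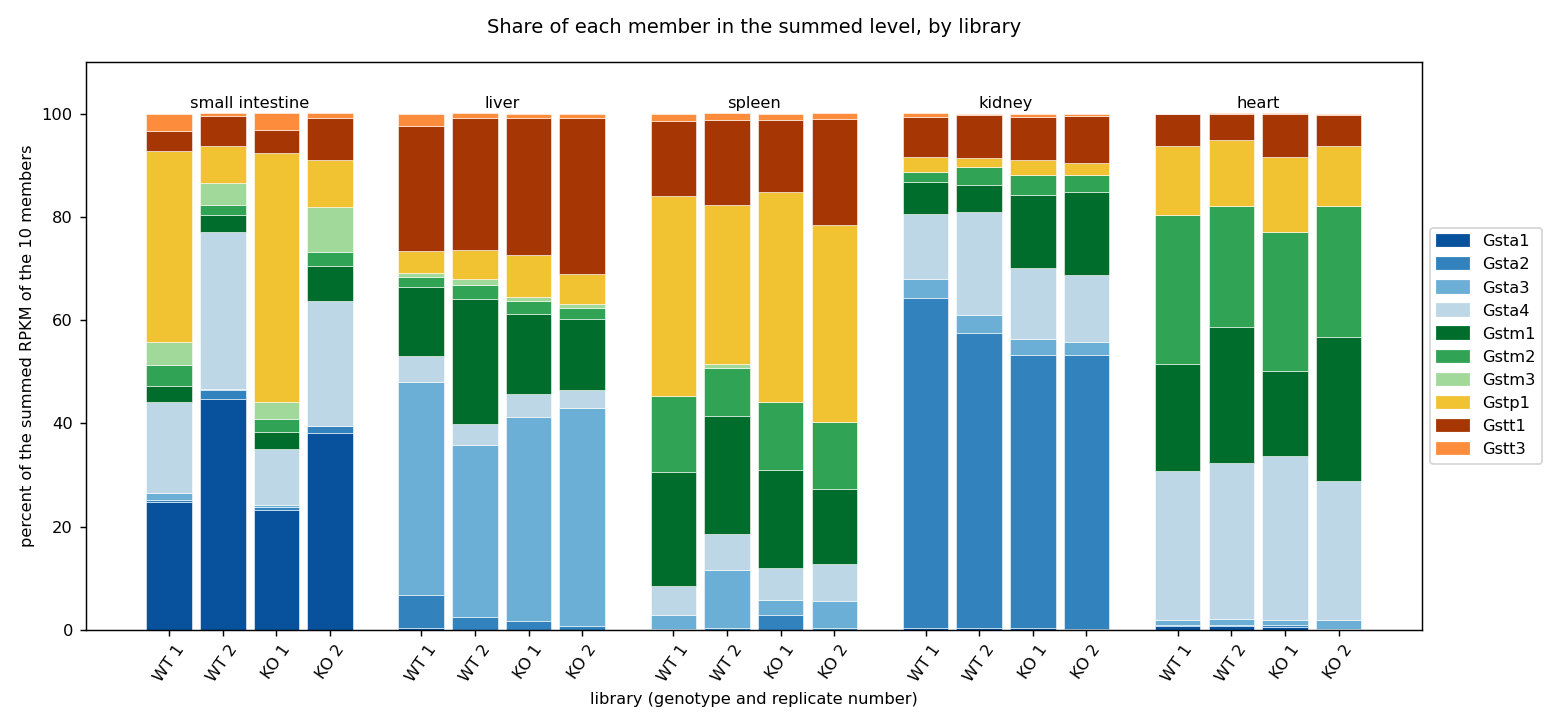
Percent of the summed RPKM of the 10 genes held by each gene, in each of the 20 libraries. Gsta3 leads in the liver (39.0% on average), Gsta2 in the kidney (56.8%), and Gstp1 in the spleen (37.1%), while the small intestine libraries differ by replicate number.

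For each gene, the gene outside the family whose log2 level followed it most closely over the 20 libraries was noted. These libraries share 5 tissues, so r includes the differences between tissues, and it is given as a description. Gstm3 was nearest to Gimd1 (r = 0.989), Gsta3 to Slc22a27 (0.982), an organic anion transporter family member, Gstt3 to Smlr1 (0.981), and Gstm2 to Fars2 (0.976), a mitochondrial phenylalanyl-tRNA synthetase. For Gsta1 it was Coq4 (0.971), a coenzyme Q biosynthesis gene, for Gstt1 the galactokinase Galk1 (0.966), for Gsta4 Dglucy (0.963), for Gsta2 the transcription factor Elf5 (0.96), for Gstm1 the transcription factor Hlf (0.951), and for Gstp1 Mpnd (0.948). Within the family the closest pairs were Gstm1 with Gstt1 (r = 0.88) and Gsta3 with Gstt1 (0.85). Gsta1 and Gsta2 had an r of 0.34, and Gsta1 and Gsta3 of -0.18.

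In the small intestine, the replicate number was accompanied by larger differences than the genotype in all of these genes except Gsta3. All 10 genes had a higher fitted level in the libraries numbered 2, and 8 were called higher, against 4.52% of genes called higher, 3.11% called lower, and 7.64% called in either direction (edgeR with genotype as a covariate, 17680 genes). The median log2 difference of the 10 genes was 4.03, and that of all genes was -0.03. Gsta2 was higher by 5.24 (SE 0.38, adjusted p = 0.0172), Gsta4 by 4.39 (SE 0.24, adjusted p = 0.0123), Gsta1 by 4.2 (SE 0.3, adjusted p = 0.0166), and Gstt1 by 4.13 (SE 0.2, adjusted p = 0.0102) on the log2 scale. The mu genes followed with 4.09 for Gstm3 (SE 0.35, adjusted p = 0.0207), 3.98 for Gstm1 (SE 0.22, adjusted p = 0.0123), and 2.91 for Gstm2 (SE 0.3, adjusted p = 0.0289). Gstt3 was higher by 1.12 (SE 0.21, adjusted p = 0.0789). Gstp1, at 1.02 (SE 0.23, adjusted p = 0.109), and Gsta3, at 0.88 (SE 0.4, adjusted p = 0.299), were not called, and only for Gsta3 did the libraries numbered 1 and 2 overlap.

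The direction was the same in both genotypes. Replicate 2 was 22.8 times replicate 1 for Gsta1 in WT and 14.3 times in KO, 48.9 and 28.6 times for Gsta2, 21.8 and 19.4 times for Gsta4, and 18.6 and 15.9 times for Gstt1. The ratios were 13.9 and 17.3 for Gstm1, 11.9 and 23.7 for Gstm3, and 5.66 and 9.75 for Gstm2. For the summed level of the 10 genes they were 12.6 in WT and 8.73 in KO.

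**Figure D3:**
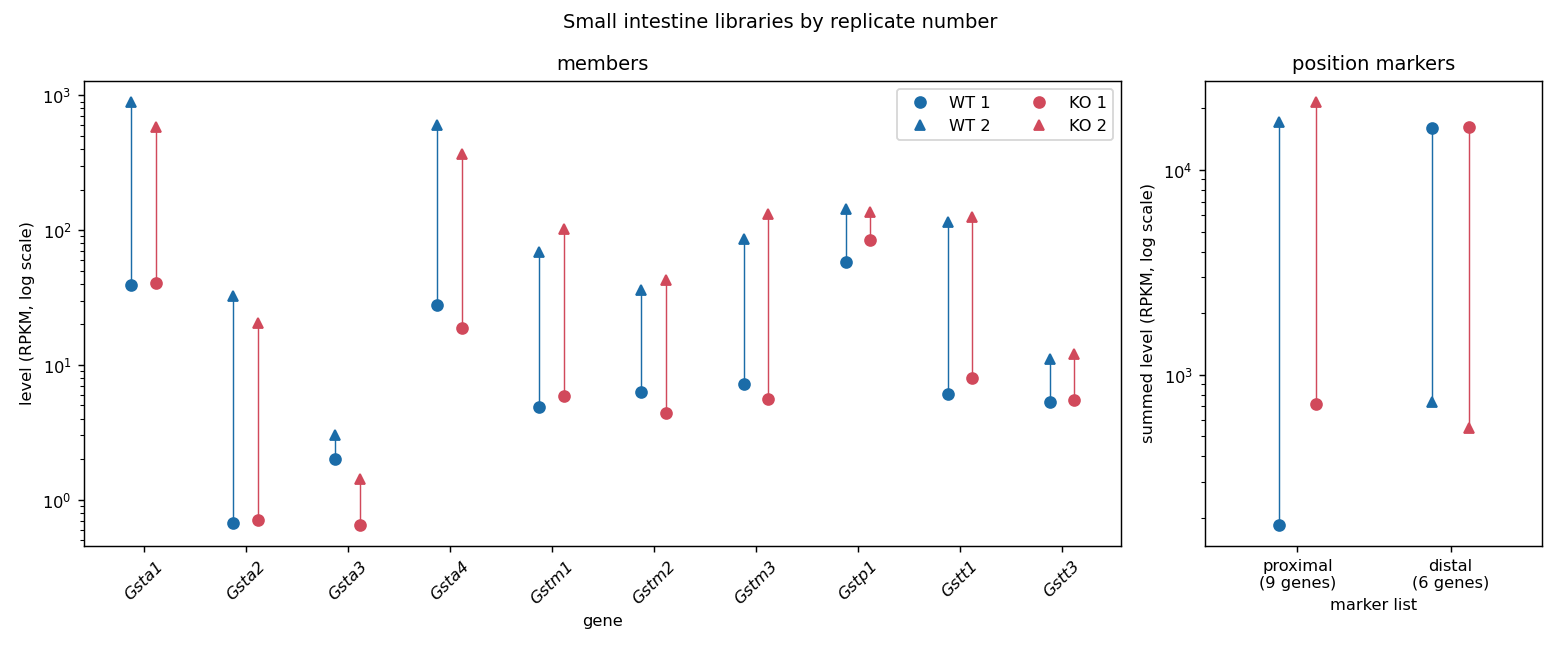
Levels in the 4 small intestine libraries (RPKM, log axis) by replicate number, with lines joining the libraries of a genotype. Most of the 10 genes are higher in replicate 2 than in replicate 1 of both genotypes, and the summed markers of the proximal and the distal intestine differ in opposite directions.

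Markers of position along the gut moved with the replicate number. The 9 proximal intestine markers were all called higher in the libraries numbered 2, and their summed levels were 185, 17205, 718, and 21461 RPKM, with Fabp1 the most abundant in the libraries numbered 2 and Rbp2 in those numbered 1. Pdx1, which specifies the duodenum, had no count in either library numbered 1. The 6 distal markers were all lower, 4 of them called, and summed to 16028, 738, 16231, and 552 RPKM, with Fabp6, the ileal bile acid binding protein, the most abundant in the libraries numbered 1 and Osr2 at 0 in both libraries numbered 2. The labels name no gut segment, so replicate number and position along the gut cannot be told apart. Of 7 enterocyte markers, 1 was called higher and 2 lower, with sums of 6999, 14960.2, 11044, and 14179 RPKM. The adipocyte markers were called lower for 4 of 4 tested and summed to 46.3, 0.505, 29.1, and 0.194 RPKM, led by Cfd in the libraries numbered 1 and with Lep at 0 in both libraries numbered 2. Their part in the result was not tested.

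Other genes of glutathione metabolism were tested in the same fit, where 4.52% of all genes were called higher and 3.11% lower. Of 15 other GST genes tested, 5 were called higher in the libraries numbered 2 and none lower, with a median log2 difference of 0.8. They were the mu genes Gstm6 (5.71), Gstm7 (5.07), and Gstm4 (3.4), the kappa gene Gstk1 (2.5), and the omega gene Gsto1 (1.85). Gstm6, for instance, was at 1.46 ± 0.514 RPKM (SD, n = 2) in the libraries numbered 1 and at 73.3 ± 3.85 RPKM in those numbered 2. Of 17 genes that make, recycle, or break down glutathione, 1 was called higher (Chac2) and 2 lower (the reductase Gsr and the dipeptidase Dpep1), with a median of 0.43. The subunits of the enzyme that limits glutathione synthesis were not called, at -0.01 for Gclc and 1.09 for Gclm (adjusted p = 0.991 and 0.117).

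Among 7 peroxidases tested, Gpx4, Gpx1, and Gpx3 were called higher and the intestinal form Gpx2 lower. Gpx2 stood at 349.6 ± 87.3 RPKM (SD, n = 2) in the libraries numbered 1 and at 83.3 ± 22.5 in those numbered 2, and Gpx4 at 180.2 ± 77.3 and 555 ± 88.1. Of 10 genes of conjugate export and acetylation, Acy3 and Nat8, which act on mercapturates and their precursors, were called higher and the pump Abcg2 lower. Of 15 genes of the Nrf2 list, 7 were called higher and none lower, with a median of 1.08. These were Nfe2l2, which encodes Nrf2 itself, Nqo1, Ephx1, Ugdh, Cbr3, and the ferritin genes Ftl1 and Fth1. Fth1 was at 309 ± 72.9 RPKM (SD, n = 2) in the libraries numbered 1 and at 3189.8 ± 11.9 in those numbered 2. Of 7 xenobiotic receptor genes, Nr1i3, which encodes the receptor CAR, and Ahr were called higher.

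The other GST genes differed in abundance from the 10 genes. The microsomal gene Mgst1 reached 3730.2 ± 683 RPKM (SD, n = 4) in the liver, above the sum of the 10 genes there. In the other 4 tissues Mgst3, also microsomal, led the list, at 597 ± 207 RPKM (SD, n = 4) in the heart, 437 ± 199 in the gut, 235 ± 68.0 in the kidney, and 55.2 ± 34.8 in the spleen. Of the 17 genes, a mean above 1 RPKM was reached by 15 in the gut, 13 in the liver, 12 in the spleen, and 11 each in kidney and heart.

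Whether loss of Nsun6 changed these genes was tested in each tissue with edgeR at the same thresholds. No gene of the family was called in any tissue. In the small intestine, 10 genes were tested and 0 were called, against 0% of all genes with edgeR and 0.345% with DESeq2, and no member had an unadjusted p under 0.05 with either tool in these fits without a replicate block. The highest difference was that of Gstm3 (log2 fold change 0.55, SE 1.74, adjusted p = 1) and the lowest that of Gsta3 (-1.31, SE 0.59, adjusted p = 1). The standard errors here were wide, the libraries being divided by replicate number, and Gstm3 turned to -0.34 without WT replicate 1 and to -3.16 without KO replicate 2. Gsta3 was the 1 member whose genotypes did not overlap, at 2.01 and 3.04 RPKM in WT and 0.651 and 1.43 in KO, whereas 24.1% of all genes did not overlap. Smooth muscle markers summed to 98 and 164 RPKM in WT and 930 and 496 in KO, with Actg2 or Acta2 the most abundant and none at 0, and all 5 had an unadjusted p under 0.05. Cardiomyocyte markers were higher in KO for 6 of 6, 3 of them with an unadjusted p under 0.05, and summed to 2.25 and 3.86 RPKM in WT and 171 and 5.1 in KO, with Tnni3, Tnnt2, or Myl2 the most abundant and none at 0. Without KO replicate 1 the value of Gsta3 was -0.83 (adjusted p = 1). The part of these markers in the result was not tested.

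In the liver, the alpha genes Gsta1 and Gsta2 had their lower values in KO, and 0 of 10 genes were called with edgeR, against 0.0509% of all genes. Gsta2 was at 85.5 and 36.5 RPKM in WT and 25.4 and 12.3 in KO, with no overlap (log2 fold change -1.69, SE 0.54, unadjusted p = 0.0265, adjusted p = 0.987). DESeq2 called Gsta2 (log2 fold change -1.7, adjusted p = 0.0139), where 0.356% of all genes were called, and edgeR with no filter on low counts called Gsta2 (adjusted p = 0.0927) and Gsta1 (adjusted p = 0.0737), where 0.477% were. With replicate number as a block, edgeR called Gsta2 (-1.67, adjusted p = 0.013), where 0.127% of all genes were called. Without WT replicate 1 the log2 fold change of Gsta2 was -0.98 (unadjusted p = 0.14, adjusted p = 0.601), and its mean over the liver went from 39.9 ± 32.0 RPKM (SD, n = 4) to 24.7 ± 12.1 (SD, n = 3). The lowest value was that of Gsta1 (-2.25, SE 0.87, unadjusted p = 0.0321, adjusted p = 0.999), at 4.42 and 0.61 RPKM in WT and 0.558 and 0.5 in KO, and it rested on WT replicate 1, without which it was -0.23 (adjusted p = 0.956). Without WT replicate 2, edgeR called Gsta1 (-3.04, adjusted p = 0.029) and Gstt3 (-1.15, adjusted p = 0.00932), where 1.16% of all genes were called, a comparison in which that replicate 1 was the only WT library. This is the library with the lowest hepatocyte sum and the highest cardiomyocyte sum of the liver. Cardiomyocyte markers were lower in KO with an unadjusted p under 0.05 for 4 of 4 tested, with sums of 10.9 and 1.93 RPKM in WT and 0.633 and 0.584 in KO. Myl2 was the most abundant of them in all but KO replicate 2, and Ryr2 was at 0 in all but WT replicate 1. Their part in the result was not tested. The highest value was that of Gstp1 (0.56, SE 0.26, adjusted p = 0.999), at 55.6 and 86.6 RPKM in WT and 119 and 90.4 in KO. Gsta3 and Gstp1 in KO lay above WT and Gsta1, Gsta2, and Gstm3 below it in every library, 5 of 10 genes, against 28.2% of all genes without overlap.

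In the spleen 8 genes passed the filter on low counts, and 0 were called, against 0.223% of all genes with edgeR and 1.16% with DESeq2. The highest value was that of Gsta2 (log2 fold change 2.56, SE 1.15, adjusted p = 1), at 0.13 and 0.222 RPKM in WT and 1.89 and 0.16 in KO. It rested on KO replicate 1, without which it was -0.09, and the library has the proximal tubule markers given above, whose part in the result was not tested. Gsta3 was lowest (-1.2, SE 1.12, adjusted p = 1) and rested on WT replicate 2, without which it was 0.67; without WT replicate 1 it was called (-1.99, adjusted p = 0.00286), where 1.86% of all genes were. Hepatocyte markers were lower in KO for 9 of 9, none of them called, with sums of 7.38 and 1582 RPKM in WT and 60 and 82.9 in KO. Alb was the most abundant except in WT replicate 1, where Serpina1b was, and none was at 0. Their part in the result was not tested. Gsta2 had an unadjusted p of 0.0253 with DESeq2, the only member under 0.05 there. The genotypes did not overlap for 1 gene, Gstm3, against 29.2% of all genes. It was not among the 8 tested and rested on 2 and 25 reads in WT and 1 and 0 in KO, with the 25 in the library of the high hepatocyte sum. Among erythroid markers, 6 of 6 were higher in KO and 3 were called, with sums of 7181 and 9901 RPKM in WT and 16062 and 14964 in KO, led by Hba-a1 or Hbb-bt and with none at 0. Adipocyte markers were higher in KO for 5 of 5, 2 of them with an unadjusted p under 0.05, and summed to 18.7 and 5.13 RPKM in WT and 40.1 and 34.5 in KO, led by Cfd and with none at 0. The part of both lists in the result was not tested.

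In the kidney 9 genes were tested and 0 were called, against 0% of all genes with edgeR and 0% with DESeq2. Gstm1 was highest, at 67.6 and 119 RPKM in WT and 231 and 218 in KO (log2 fold change 1.25, SE 0.4, unadjusted p = 0.0226, adjusted p = 1), and its genotypes did not overlap. Gstm1 and Gstm3 were the 2 members without overlap, against 20.6% of all genes. Gstm3, which was not tested, rested on 2 reads in each WT library and on 9 and 8 in KO. Gsta1 and Gsta4 were lowest, both at -0.55 (SE 0.63 and 0.6). Gsta1 was at 0 without WT replicate 2 and at -1.28 without KO replicate 1. Calls appeared when a WT library was left out, and so did calls over all genes. Without WT replicate 1, Gsta4 was called (-1.15, adjusted p = 0.000948), where 16.1% of all genes were called. Without WT replicate 2, Gstm1 (1.71, adjusted p = 0.00588) and Gstm2 (1.4, adjusted p = 0.0341) were called, where 2.37% were. For Gsta4 and Gstm2 the sign depended on which WT library was left. Gsta4 was at 0.52 without WT replicate 2, and Gstm2 at -0.51 without WT replicate 1. Gstm1 kept its sign, at 0.92 without WT replicate 1, and ranged from 0.92 to 1.71 with each kidney library left out in turn. Kidney WT replicate 2 also had the highest hepatocyte sum of the kidney, 225 RPKM against 60.9 to 139, with Cyp2e1 the most abundant and none at 0, and its part in the result was not tested.

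In the heart 9 genes were tested and 0 were called, against 0% of all genes with edgeR and 0.012% with DESeq2, and no member had an unadjusted p under 0.05 with either. The range ran from Gsta1 (log2 fold change -1.03, SE 0.85, adjusted p = 1) to Gstt1 (0.34, SE 0.36, adjusted p = 1), which turned to -0.14 without KO replicate 1. Gsta1 was at 2.99 and 2.67 RPKM in WT and 2.59 and 0.397 in KO. It rested on KO replicate 2, without which it was -0.15, and it was -2.82 without KO replicate 1 (adjusted p = 1 for both). Gsta3 and Gstt3 lay above and Gsta1 and Gstm3 below WT in every KO library, 4 of 10 genes, against 17% of all genes without overlap. Gstm3, which was not among the 9 tested, rested on at most 3 reads in any heart library, with 1 and 3 for WT and 0 and 1 for KO. Lymphocyte markers were lower in KO for 5 of 5 tested, 2 of them with an unadjusted p under 0.05, and summed to 0.99 and 8.97 RPKM in WT and 0.841 and 1.18 in KO. They were led by Cd79a except in WT replicate 1, where Cd3d led, and Cd3e and Cd3d were at 0 in KO replicate 1. The adipocyte markers, led by Cfd, were high in the libraries numbered 2 of both genotypes, with 1.99 and 181 RPKM in WT and 5.29 and 64.1 in KO and with Lep at 0 in both libraries numbered 1. Their part in the result was not tested.

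**Figure D4:**
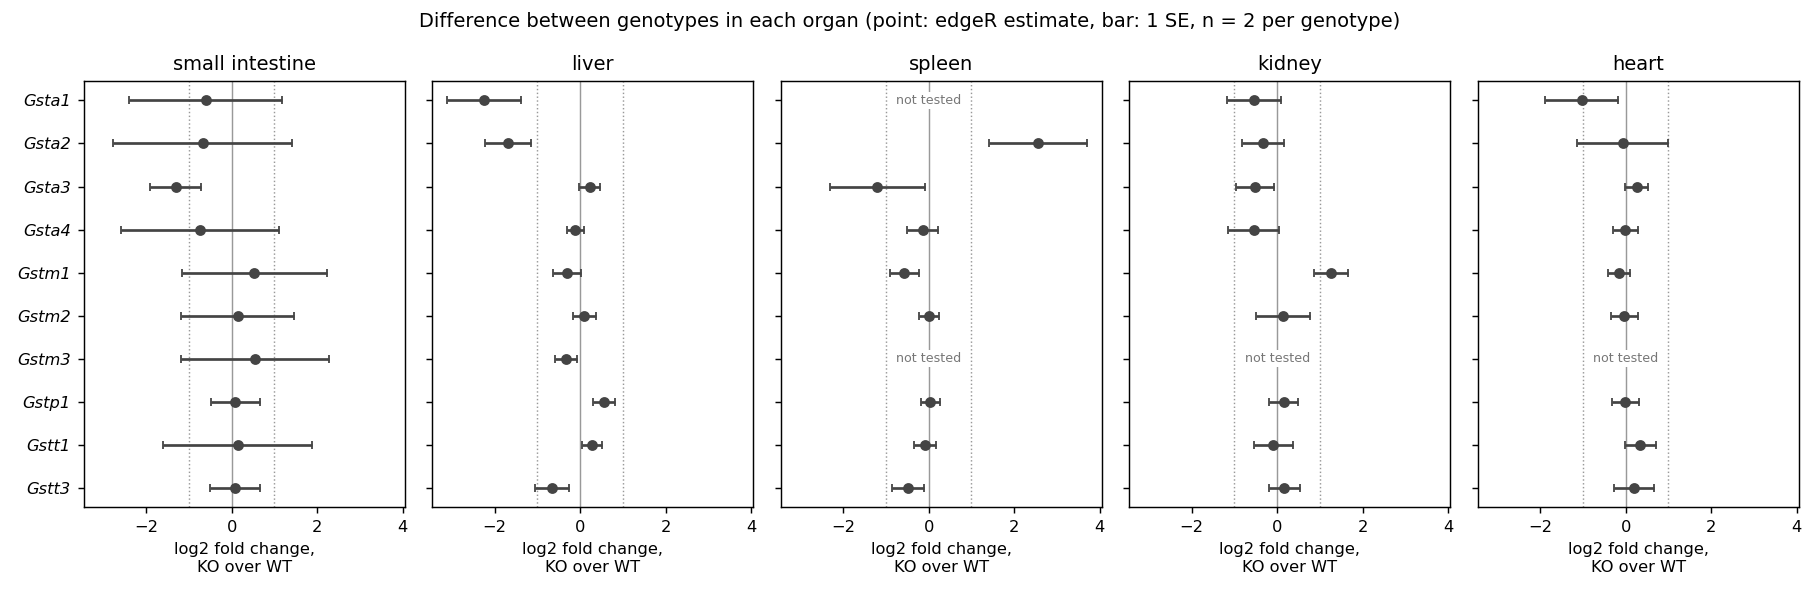
Log2 fold change of KO over WT for each gene and tissue with its standard error, from edgeR. Values run from -2.25 (Gsta1 in the liver) to 2.56 (Gsta2 in the spleen), and none passed an adjusted p under 0.1.

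A difference of like size in all tissues was tested in the 20 libraries together, and 0 of 10 genes were called, against 0.00432% of all genes. The values ran from -1.02 for Gsta1 (SE 0.69, adjusted p = 1) to 0.18 for Gstp1 (SE 0.17, adjusted p = 1), with a median of -0.16 against 0.01 for all genes. With each library left out in turn, Gsta1 ranged from -1.65 to -0.67 and Gstp1 from 0.09 to 0.27. No member had an unadjusted p under 0.05 with edgeR or DESeq2. The test of whether the genotype difference differed between tissues called 0 members, against 0% of all genes, with no member under an unadjusted p of 0.05 with edgeR and 1 with DESeq2 (Gstm3, unadjusted p = 0.0376, adjusted p = 0.985).

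The remaining genes of glutathione metabolism were not called between genotypes in any tissue either, in lists of other GST genes, glutathione synthesis and breakdown, peroxidases, conjugate export, Nrf2 targets, and xenobiotic receptors. In the spleen, Mgst3 was at 16.7 and 35.1 RPKM in WT and 86.6 and 82.7 in KO (log2 fold change 1.74, unadjusted p = 0.00723, adjusted p = 0.403), and Chac2, which degrades glutathione, was at 11.8 and 13 in WT and 23.8 and 29 in KO (1.13, unadjusted p = 0.000579, adjusted p = 0.132). In the list of glutathione synthesis, recycling, and breakdown, 5 of 16 genes tested had an unadjusted p under 0.05 in the spleen, against 5.14% of all genes. They were Chac2, Gclm (0.83), Gclc (0.51), Hagh (1.04), and Dpep1 (1.04), all higher in KO, none of them called, and in all 9 of the 16 had a higher fitted level in KO. Gpx1 (0.72), Nqo1 (0.99), and Abcg2 (0.92) were also higher there at an unadjusted p of 0.00514, 0.0388, and 0.0119. All of these moved with the erythroid and adipocyte markers given above, whose part was not tested. In the liver, Mgst3 was at 37.7 and 33.6 RPKM in WT and 57.0 and 58.2 in KO (0.69, unadjusted p = 0.00409, adjusted p = 0.868). The smallest p of the Nrf2 list in the liver was that of Nfe2l2 (-0.49, unadjusted p = 0.0214), while Osgin1 (0.65, unadjusted p = 0.0455) and Cbr3 (1.41, unadjusted p = 0.0472) were higher, and 9 of the 15 genes of that list had a higher fitted level in KO. That of the synthesis list was the glyoxalase Hagh (0.67, unadjusted p = 0.0468), and 13 of its 15 genes had a higher fitted level in KO. In the kidney the smallest of the synthesis list was Chac1 (2.06, unadjusted p = 0.0407) and of the export list the pump Abcc3 (1.11, unadjusted p = 0.0203), in the small intestine that of the export list was Abcc5 (0.91, unadjusted p = 0.0453), and in the heart no gene of these lists reached 0.05. The list medians lay between -0.18 and 0.28 over the 5 tissues, where those of all genes lay between -0.03 and 0.01.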

How the data were processed

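The 20 libraries hold RNA of 5 tissues from WT mice and Nsun6-KO mice. Per the labels and the methods, the authors trimmed reads with cutadapt, mapped them with HISAT2 2.1.0, and counted exon reads per Ensembl gene of GRCm38 with featureCounts 2.0.1. The deposited values are raw counts per gene, not normalized, beside the exon length of each gene. The methods state reverse-stranded counting of proper pairs, whereas the stored command holds no strand, pair, or multi-mapping option. Between 54.9% and 59.8% of gene counts from 10 to 50 were even, so mates were apparently counted separately and counts are not independent molecules. Groups follow the labels (tissue, genotype, replicate number), libraries were treated as independent, and p-values measure the spread between 2 libraries per group.

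Counts were fitted with edgeR 4.0.16 in R 4.3.3 (TMM, filterByExpr, robust quasi-likelihood test) over all genes, with Benjamini-Hochberg adjustment. Called genes had an adjusted p under 0.1 with more than 2-fold change. Standard errors are |log2 fold change| over the square root of F. DESeq2 1.42.0 and limma 3.58.1 on log2(TPM + 0.1) were alternatives, with other size factors, filters, and thresholds, a replicate block, and each library left out. Python 3.11.15 computed levels, shares, and sequence matches. The fits were tested on simulated counts.

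The members and lists were chosen with earlier results of these data known. By rule, the members with the highest and lowest genotype difference in each tissue, the leading other GST gene, the called list genes, the list gene with the smallest unadjusted p under 0.05, and the nearest gene by r were named. Pdx1, Fabp6, Osr2, Lep, Gclc, Gclm, the 5 other GST genes called between replicate numbers, and the marker genes named as most abundant were named after their values were seen. Only the deposited count table was used.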

Additional observations from a re-analysis of the deposited data

Results flagged for a closer look

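In 50 groups of 4 libraries (10 genes in 5 tissues), 6 had a library set far apart from the other 3 by Dixon's criterion, where chance gives about 5%. Gsta1 was at 4.42 RPKM in liver WT replicate 1, the highest liver library, against 0.5 to 0.61 in the others. Gstt3 was at 31.8 RPKM in the same library, against 12.8 to 14.8. Gsta1 was at 0.397 RPKM in heart KO replicate 2, the lowest heart library, against 2.59 to 2.99. Gsta2 was at 1.89 RPKM in spleen KO replicate 1, the highest spleen library, against 0.13 to 0.222. Gsta3 and Gstm3 were at 8.46 and 0.498 RPKM in spleen WT replicate 2, each the highest spleen library, against 1.4 to 2.35 for Gsta3 and 0 to 0.0292 for Gstm3. Of the 6 values, 5 came from 3 libraries whose markers of another tissue were above those of the other libraries of their tissue. The same held for heart KO replicate 2, the library of the remaining value. Its distal nephron and collecting duct markers summed to 0.508 RPKM, against at most 0.262 in the other heart libraries. Being highest in some marker list therefore does not set the 5 values apart. The part of these markers in the 6 values was not tested.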

How the results depend on the processing

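Of the called steps between tissues, those of Gsta1, Gsta3, Gsta4, kidney over liver for Gsta2, liver over kidney for Gstm3, and kidney over spleen for Gstt3 kept their call with every library left out in turn. The 13 called steps became 21 with no filter on low counts, 8 with at least 10 counts in every library, 20 with the small intestine represented by its libraries numbered 1 alone (chosen after seeing the data), 15 with DESeq2, and 19 with the replicate block. Some directions turned. Gsta4 in the small intestine over kidney was -0.01 with no filter and -1.28 with limma, and was called in the other direction with the replicate block (-1.17, adjusted p = 0.00241) and with the libraries numbered 1 (-3.36, adjusted p = 4.92e-05); Gstm1 in liver over kidney was -0.09 and Gstt3 in small intestine over kidney 0.00 with limma. With the libraries numbered 1 alone, small intestine over spleen was -1.18 for Gstm1 and -0.54 for Gstm2, small intestine over liver was -0.98 for Gstm3 and -0.27 for Gstp1, small intestine over heart was -1.65 for Gstt1, and small intestine over kidney was -0.35 for Gstt3. With those numbered 2 alone, liver over small intestine was -0.16 for Gstm2. Between genotypes, members called in the liver were 1 with DESeq2, 2 with no filter, and 1 with the replicate block, against 0.356%, 0.477%, and 0.127% of all genes called, in the spleen 1 with no filter (1.04%), and for the interaction 2 with no filter (2.66%). Shares of counts not divided by length were 64.4% for Gsta3 in the liver, 48.2% for Gsta2 in the kidney, and 24.6% for Gsta4 in the heart. The cause of these differences was not tested.

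With each library left out in turn, which assumes that a lone library varies like the other groups, members called were 0 to 2 in the liver, 0 to 1 in the spleen, and 0 to 2 in the kidney, and the share of all genes called reached 1.25%, 1.86%, and 16.1%. Between genotypes the log2 fold change ranged from -3.16 to 3.24 for Gstm3 in the small intestine, from -0.09 to 3.44 for Gsta2 and from -1.99 to 0.67 for Gsta3 in the spleen, and from -0.14 to 0.71 for Gstt1 in the heart. Between tissues it ranged from -0.17 to 1.68 for Gsta1 in heart over liver, -0.5 to 1.9 for Gsta2 in heart over spleen, -1.66 to 0.63 for Gsta4 in small intestine over kidney, -0.09 to 0.91 for Gstm2 in kidney over liver, -0.7 to 2.07 for Gstm3 in spleen over heart, -0.06 to 0.54 for Gstp1 in small intestine over liver, -0.09 to 1.87 for Gstt1 in small intestine over heart, and -0.05 to 0.49 for Gstt3 in small intestine over kidney. For the replicate numbers in the small intestine, 9 members were called with DESeq2 (12.5% of all genes), 7 with limma (8.71%), and 7 at an adjusted p under 0.05 (3.4%); leaving out a library leaves no residual degrees of freedom there, so it gave no test.

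No label states that the replicate numbers pair the samples. In the heart, the column names of both libraries numbered 2 hold the mark "pre", which those numbered 1 lack and the labels do not explain. Total counts of the heart libraries numbered 2 were 36090637 (WT) and 41763236 (KO), against 17959542 and 15897446 for those numbered 1. The part of these differences in the results was not tested. Differences of replicate 2 from replicate 1 in WT and KO correlated over genes with r = 0.48 in the small intestine, 0.25 in the heart, and 0.01 to 0.07 in the other tissues. The replicate block added a call of Gsta2 in the liver (adjusted p = 0.013) and changed no other count of members called between genotypes. With it, Gsta3 and Gsta4 in the small intestine were at -1.39 and -0.68 (unadjusted p = 0.0229 and 0.0285, adjusted p = 0.828 for each). Between tissues it also called steps that were not called without it, among them liver over kidney (log2 fold change 1.58), kidney over small intestine (2.17), and heart over spleen (1.28) for Gstt1, kidney over heart for Gsta4 (1.1), liver over small intestine for Gsta2 (3.03) and Gstm2 (1.25), and heart over small intestine for Gstm1 (1.98), while small intestine over spleen fell to 0.81 for Gstm1 and 0.98 for Gstm2. With 2 libraries per group, differences of the size seen for Gsta1 in the heart could not be told from the spread.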
